A study of Rattus norvegicus with 6 samples.

Results

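The comparison described here is OZ serum against LZ serum in rat muscle-derived stem cells, read as the log2 signal of the OZ serum array minus that of the LZ serum array. The arrays were taken by their titles and are 2 of the 6 in the series. All 6 came from cultured stem cells of male rat skeletal muscle, isolated by plating, which enriches adherent progenitors and is no sort for a single cell type. One culture is titled LZ serum and one OZ serum. LZ and OZ are used in this field for lean and obese Zucker rats, a strain whose obese animals lack a working leptin receptor, but the labels spell out neither letter pair. They give no source animal, concentration or exposure time for either serum, and do not say whether a serum was pooled. The other 4 libraries are a high glucose control, a low glucose control, cholesterol (100 mg/dl with cyclodextrin as carrier) and fatty acid, for which the labels name sodium palmitate. Which of the controls matches the serum cultures is not stated, so each control was used separately.

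Serum carries growth factors, hormones, metal ions and lipoproteins, and cultured progenitor cells read these through several transcription programmes. Growth factors drive the genes of DNA replication and mitosis, sterol supply is read by the factor SREBP2, and free zinc is read by the factor MTF1. Cytokines act through NF-kB and through the factors of the acute-phase response, while corticosteroids act through the glucocorticoid receptor.

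Each group was 1 array (Affymetrix Rat Gene 2.0 ST), so errors and tests are lacking throughout, and a difference describes these libraries and not the sera. The number of arrays limits the precision. A level is a log2 intensity and a difference is OZ minus LZ on the same log2 scale, unless another pair of libraries is named. Of 18166 named genes, 11540 had a mean level over the 6 arrays at or above log2 6.74, the median of all values, and the counts are over these. In bulk RNA, fewer cells of a type and less RNA per cell cannot be told apart.

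The labelled cell type was checked against marker genes. The mesenchymal progenitor markers Thy1, Vim and Prrx1 were among the brightest genes in both libraries, at 13.48, 13.79 and 13.03 in LZ serum and 13.41, 13.76 and 12.96 in OZ serum. Pax7, the defining factor of satellite cells, lay near the filter at 7.03 and 7.05, and the muscle commitment factors Myod1 (6.41 and 6.30) and Myf5 (6.06 and 6.18) lay below it. Leukocyte Ptprc (5.55 and 5.59), endothelial Cdh5 (5.88 and 6.16) and adipocyte Adipoq (5.83 and 5.91) also lay below the filter. Other genes of these marker lists were bright in both libraries: Ncam1 of the satellite cell list (12.31 and 12.27), Pmp22 and S100b of the neural list (12.70 and 12.74, and 10.51 and 10.35), Cd14 of the leukocyte list (9.58 and 9.27) and Erg of the endothelial list (8.96 and 8.70). Of the muscle genes, Car3 (11.91 and 11.88) and Acta1 (10.78 and 10.58) were bright too. The passing markers were thus 14 of 15 for mesenchymal progenitors, 6 of 12 for satellite cells, 6 of 9 for neural cells, 6 of 17 for leukocytes and 3 of 11 for endothelial cells. Adipocyte markers passed in 5 of 10 (Cidea at 8.12 and 8.05) and pericyte markers in 5 of 9. Keratinocyte markers passed in 5 of 11, with Kprp at 8.99 and 8.61. Summed intensity of all 9 pericyte markers was 11680 in LZ serum and 10430 in OZ serum, and of all 15 mesenchymal markers 79050 and 75260. Of the passing markers 4 of 5 and 13 of 14 were lower, against 58.1% of all genes. Among the mesenchymal markers Pdgfra (a growth factor receptor of these cells) was lower by the most, at -0.40. Pdgfrb, the brightest pericyte marker at 12.79 and 12.66, is in both lists. The part of such shifts in the lists described below was not tested.

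The serum libraries were close to each other. The SD of the difference over the 11540 genes was 0.153, the second smallest of the 15 pairs of libraries after LZ serum and the high glucose control at 0.138, while the controls differed from each other with an SD of 0.244. At 2-fold or more, 0 genes (0%) were higher in OZ serum and 3 genes (0.026%) were lower. At 1.5-fold or more, 13 genes (0.113%) were higher and 17 (0.147%) were lower, against 312 between the controls in either direction. With each array centred on its median these counts became 10 higher and 24 lower. The centre of all genes was slightly low in OZ serum, with a median of -0.03 and quartiles of -0.12 and 0.06. Of all genes, 41.9% were higher and 58.1% lower in OZ serum by any amount, and these shares are the background for every list below. The share higher varied with signal, from 49.5% in the dimmest and 48.7% in the brightest of 5 equal bins of genes by signal. In the bins between it was 36.7%, 34.7% and 39.7%. For lists of mid-level genes the background share higher is therefore below 41.9%. The plot of difference against signal shows the narrow band of most genes and the few outside it.

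**Figure D1:**
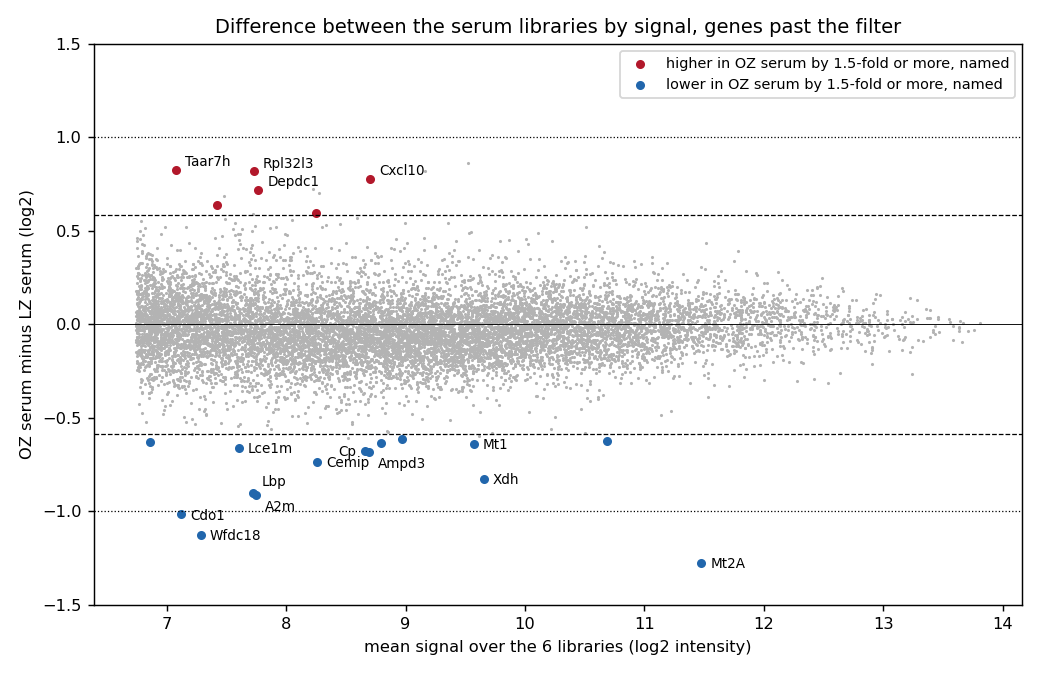
Difference between OZ serum and LZ serum (log2, vertical axis) against the mean signal over the 6 libraries (log2 intensity, horizontal axis) for 11540 genes, 1 grey point a gene, with dashed lines at 1.5-fold and dotted lines at 2-fold. Named genes past 1.5-fold are coloured; Mt2A, Wfdc18 and Cdo1 are past 2-fold on the lower side and no gene is on the upper side.

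Small shifts shared by the members were seen in some groups of genes. Of 48 functional lists, 2 had a median of 0.1 or more and 15 a median of -0.1 or less, and these lists share some members. Mitosis had the highest median, 0.27 or 1.21-fold, and complement and acute-phase proteins the lowest, -0.26 or 1.20-fold. Under a stricter signal filter (mean level of at least log2 8.68) mitosis was still the highest, at 0.34, but complement was -0.16. Lists then lower than complement included metallothioneins and zinc transport (-0.60, 5 genes) and FOXO targets (-0.26). Of those 5 genes only Mt2A and Mt1 are metallothioneins. The retinoid, dioxin receptor and thyroid list (-0.25), the insulin-like growth factor system (-0.21) and inflammatory genes (-0.19) were lower too. So were collagen chains and fatty acid synthesis, both at -0.17. The median between the high and low glucose controls is the measured shift between libraries that received no serum treatment by their titles, although it includes glucose. It was smaller in size than the serum difference for 23 of the 48 lists and larger or equal for the other lists.

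**Figure D2:**
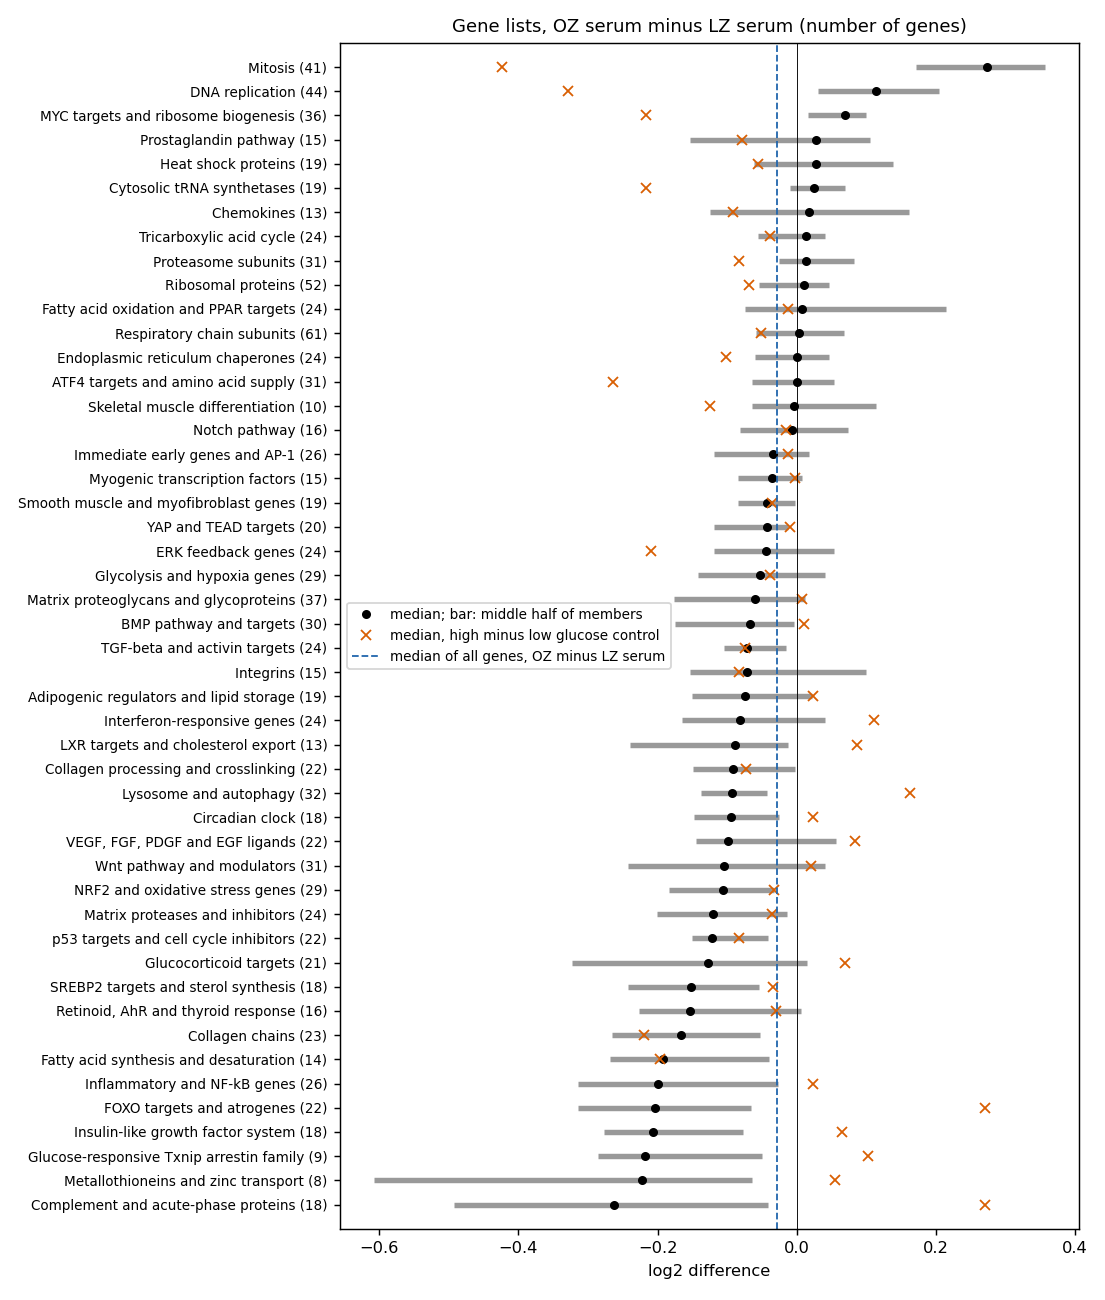
Median difference of each of the 48 gene lists between OZ serum and LZ serum (black points, log2; grey bars span the quartiles of the members), with the median between the high and low glucose controls as crosses and the all-gene median of -0.03 as a dashed line. Mitosis (0.27) and DNA replication (0.11) lie at the top, and complement (-0.26) and metallothioneins with zinc transport (-0.22) at the bottom.

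The mitotic genes were higher in OZ serum throughout. All 41 of 41 measured members were above 0, from 0.02 for Ccnb2, a cyclin of mitotic entry, to 0.54 for Bub1, a kinase of the spindle checkpoint, against 41.9% of all genes. None reached 1.5-fold. With each array centred on its median 39 of the 41 remained above 0, and Ccnb2 and Aurkb did not.

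Among the checkpoint and kinetochore genes, Bub1 read 8.99 in LZ serum and 9.53 in OZ serum, with 8.96 in the high glucose control, 9.10 in the low glucose control, 8.77 in cholesterol and 8.64 in fatty acid. OZ serum was thus the highest of the 6 libraries for Bub1. Sgo1, which protects sister-chromatid cohesion, read 7.35 in LZ serum and 7.86 in OZ serum, and 7.64, 7.59, 7.35 and 7.54 in the high glucose, low glucose, cholesterol and fatty acid libraries. Cenpa, the histone variant of the centromere, read 8.24 and 8.65 in the serum libraries, and 8.05, 8.58, 8.08 and 7.85 in the others in the same order. For Sgo1 and Cenpa too, OZ serum was the highest library.

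OZ serum was the highest of the 6 libraries for 20 of the 41 members, against 9.22% of all genes, and not for the others. Cdc20, the activator of the anaphase-promoting complex, read 10.40 in LZ serum and 10.77 in OZ serum, and 10.27, 10.83, 10.51 and 10.25 in the high glucose, low glucose, cholesterol and fatty acid libraries. Plk1, a kinase of mitotic entry, read 10.48 and 10.78 in the serum libraries, and 10.25, 10.92, 10.41 and 10.21 in the others. The low glucose control, not OZ serum, was the highest library for both. Pttg1 (securin, which holds separase in check) was 0.41 higher in OZ serum at 9.25, level with 9.25 in the low glucose control. Mki67, a nuclear protein of cycling cells, was 0.36 higher, Top2a (the topoisomerase that untangles sister DNA) 0.36, Ccna2 (cyclin A) 0.36, Kif11 (a spindle motor) 0.36 and Cdk1 (the mitotic kinase) 0.27. Aurkb and Incenp, subunits of the chromosomal passenger complex, differed least besides Ccnb2 and Cdc25c, at 0.03 and 0.06.

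The list as a whole ranked OZ serum beside the low glucose control. The median deviation of its members from each gene's mean over the 6 libraries was 0.26 in OZ serum and 0.27 in the low glucose control, and -0.03 in LZ serum, -0.12 in cholesterol, -0.18 in the high glucose control and -0.22 in fatty acid. OZ serum was above both controls for 20 of 41 members and LZ serum for 1, against 21.9% and 20.3% of all genes. Side by side, the list median was 0.43 for OZ serum and 0.14 for LZ serum against the high glucose control, and -0.00 for OZ serum and -0.30 for LZ serum against the low glucose control. These comparisons share arrays with each other. The high minus low glucose median, -0.42, was larger in size than the serum difference.

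DNA replication genes were shifted less. Of 44 members 35 were higher and 9 lower, with a median of 0.11. Prim1, the catalytic subunit of primase, was the highest at 0.49, with levels of 9.31 in LZ serum and 9.81 in OZ serum, and its other probe set differed by 0.34. Pole2, a subunit of the leading-strand polymerase, was 0.47 higher, Gins4 (part of the replicative helicase) 0.33, and the helicase subunits Mcm7 and Mcm5 0.30 and 0.29. Pcna, the polymerase clamp, was 10.95 in LZ serum and 11.19 in OZ serum. Tyms, which makes thymidylate, was -0.05, and Slbp, which binds histone transcripts, was the lowest at -0.17. Of the MYC and ribosome biogenesis list 31 of 36 members were higher, with a median of 0.07, Gar1 (a nucleolar ribonucleoprotein) by the most at 0.25 and Ncl (nucleolin) by 0.16, while Myc itself was 0.01. The joint list of p53 targets and cell cycle inhibitors lay on the other side, with 19 of 22 lower and a median of -0.12. Its p53 targets Rrm2b and Sesn1 were -0.31 and -0.21. The Cdk inhibitors themselves were mixed: Cdkn2a was -0.22, Cdkn1a -0.13, Cdkn1b -0.10 and Cdkn2b -0.035, while Cdkn1c was 0.003 and Cdkn2c 0.11.

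Because the mitotic genes differed together, the 250 bases before the annotated start of 3 of them are shown, from RefSeq (GRCr8). The genes and motifs were chosen after the values were seen. Capitals mark the cell cycle homology region, searched as TTTGAA and TTCGAA, and the CCAAT box, searched as CCAAT, each on both strands, so that TTCAAA and ATTGG are their reverse forms and matches may overlap. Cenpa lies at chr6:31431553-31431802 on the minus strand, Pttg1 at chr10:28406327-28406576 on the minus strand and Cdc20 at chr5:137255800-137256049 on the minus strand, and each sequence is written 5′ to 3′ on the gene's strand.
Cenpa: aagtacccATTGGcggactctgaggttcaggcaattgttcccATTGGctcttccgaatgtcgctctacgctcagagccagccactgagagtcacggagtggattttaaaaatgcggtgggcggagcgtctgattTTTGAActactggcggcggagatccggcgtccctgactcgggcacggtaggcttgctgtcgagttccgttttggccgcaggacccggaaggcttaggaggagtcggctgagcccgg
Pttg1: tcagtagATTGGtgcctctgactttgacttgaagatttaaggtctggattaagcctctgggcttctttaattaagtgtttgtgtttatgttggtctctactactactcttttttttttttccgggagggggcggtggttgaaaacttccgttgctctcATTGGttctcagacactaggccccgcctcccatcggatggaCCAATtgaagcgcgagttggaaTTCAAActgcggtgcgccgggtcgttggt
Cdc20: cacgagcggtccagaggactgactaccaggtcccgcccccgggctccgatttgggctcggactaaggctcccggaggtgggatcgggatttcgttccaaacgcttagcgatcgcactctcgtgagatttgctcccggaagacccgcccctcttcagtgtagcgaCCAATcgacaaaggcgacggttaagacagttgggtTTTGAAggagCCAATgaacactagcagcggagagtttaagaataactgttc
Each of the 3 windows held 1 cell cycle homology region, with 2, 3 and 2 CCAAT boxes respectively. Over all members with a promoter in the table, 17 of 35 mitotic genes (48.6%) held a cell cycle homology region, against 12% of 9493 promoters of genes past the filter. A CCAAT box was in 27 of 35 (77.1%), against 35.7%. Among the replication genes, 9 of 37 windows (24.3%) held an E2F site, searched as TTTCGCGC, TTTCCCGC and TTTGGCGC on both strands, against 2.8%, and 1 of 35 mitotic windows did. For the sterol genes described next, a CCAAT box was in 11 of 14 SREBP2 windows (78.6%), as high a share as in mitosis, and the sterol regulatory element, searched as TCACNCCAC, was in 0 of 14, against 1.0% of all. A match is a description of the letters and says nothing about binding in these cells.

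Genes of sterol synthesis were lower in OZ serum. Of the 18 SREBP2 targets, which make cholesterol or control its supply, 17 were lower and 1 was higher, against 58.1% of all genes lower, and the median was -0.15 or 1.11-fold. None reached 1.5-fold. The lowest were Tm7sf2 (a sterol reductase) at -0.53, Lss (lanosterol synthase) at -0.49, Dhcr7 (the reductase of the final step) at -0.40, Sqle (squalene epoxidase) at -0.38 and Insig1 (the sterol-sensing brake on SREBP processing) at -0.26. The member above 0 was Msmo1, a sterol demethylase, at 0.05, and Fdft1, Stard4 and Nsdhl lay between -0.04 and -0.01.

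Both serum libraries were low for these genes when set beside the controls. Lss read 10.42 in LZ serum and 9.93 in OZ serum, with 10.63 in the high glucose control, 10.66 in the low glucose control, 9.99 in cholesterol and 9.89 in fatty acid. Sqle read 10.27 and 9.88 in the serum libraries, with 10.56, 10.72, 8.98 and 10.21 in the others in the same order. Dhcr7 read 8.85 in LZ serum and 8.45 in OZ serum, with 9.004, 9.36, 7.65 and 7.79 in the others. For each of these genes the order was controls, then LZ serum, then OZ serum. In LZ serum and in OZ serum, all 18 of 18 members were below both controls, against 29.3% and 41.6% of all genes. Against the high glucose control the list median was -0.23 in LZ serum and -0.45 in OZ serum, and in cholesterol, where the sterol was supplied, it was -1.23. The difference between the controls was -0.03 for this list.

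The other lipid lists showed smaller or mixed differences. Of 14 genes of fatty acid synthesis and desaturation 11 were lower, with a median of -0.19: Scd, the main desaturase of saturated fatty acids, read 9.02 in LZ serum and 8.60 in OZ serum, with 9.22, 9.78, 7.70 and 8.71 in the high glucose, low glucose, cholesterol and fatty acid libraries. Lpin1 (phosphatidate phosphatase) was -0.37, Acly (citrate lyase) -0.29 and Acaca (acetyl-CoA carboxylase) -0.22, while the elongase Elovl6 was 0.29. The difference between the controls had the same median for this list, -0.20. Of 13 LXR targets and cholesterol exporters 10 were lower, with a median of -0.09. Srebf1, the lipogenic factor, was -0.38 and Abca1, the main exporter of cholesterol from cells, was -0.30, at 9.51 in LZ serum and 9.21 in OZ serum against 12.28 in cholesterol. Abcg1, another exporter, was 0.14 higher.

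Fatty acid oxidation and PPAR targets split evenly, with 12 of 24 higher, 12 lower and a median of 0.01. The top of the list was Pdk4, the kinase that holds pyruvate dehydrogenase off when fat is burned. Pdk4 read 7.47 in LZ serum and 8.11 in OZ serum (1.56-fold), with 7.31 in the high glucose control, 6.83 in the low glucose control, 7.10 in cholesterol and 7.74 in fatty acid, so OZ serum was the highest library. It was followed by the uncoupling protein Ucp2 (0.37), Hadha, a subunit of the mitochondrial trifunctional protein (0.29), the lipase inhibitor Angptl4 (0.26), the carnitine transferase Cpt1a (0.26), Ucp3 (0.24) and Hadhb (0.21). Cpt1a read 9.39 in LZ serum and 9.64 in OZ serum, with 8.95, 8.88, 9.65 and 9.90 in the high glucose, low glucose, cholesterol and fatty acid libraries. The peroxisomal enzymes Ehhadh and Acaa1a were the lowest, both at -0.29, and Plin2, which coats lipid droplets, was 0.02. Of the adipogenic and lipid storage genes 13 of 19 were lower with a median of -0.07, and Pparg, the factor of fat cell differentiation, was 0.02.

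**Figure D3:**
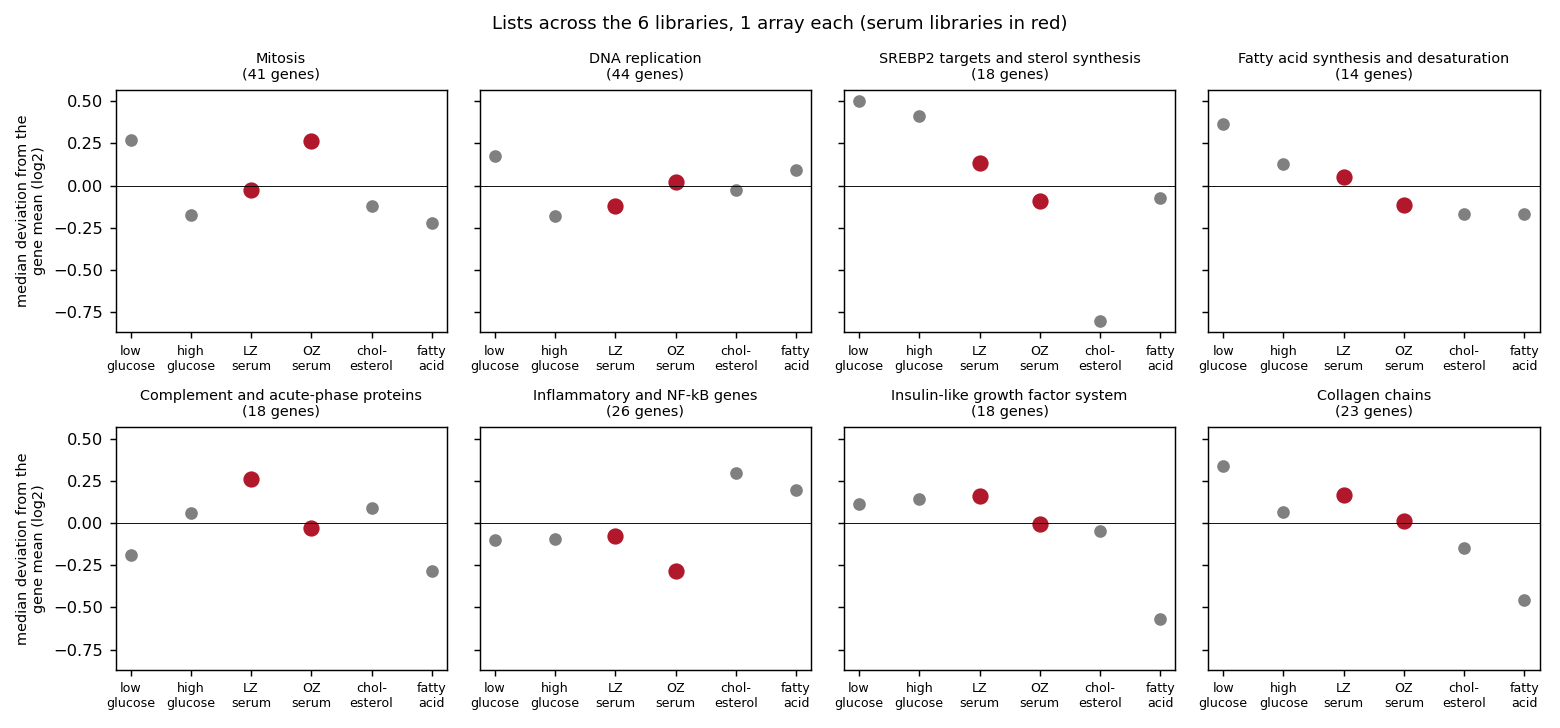
Median deviation of the members of 8 lists from each gene's mean over the 6 libraries (log2), with 1 point a library (1 array each) and the serum libraries in red. OZ serum is at 0.26 for mitosis, beside the low glucose control at 0.27, and at -0.09 for SREBP2 targets, below LZ serum at 0.13 and above cholesterol at -0.80.

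The single largest difference was in the metallothioneins, small cysteine-rich proteins that bind zinc and copper. Mt2A read 11.77 in LZ serum and 10.49 in OZ serum, 2.42-fold lower (-1.28), with 10.68 in the high glucose control, 11.34 in the low glucose control, 12.61 in cholesterol and 11.96 in fatty acid. Its other probe set differed by -1.15. Mt1 read 9.26 in LZ serum and 8.62 in OZ serum, 1.56-fold lower, with 9.004, 9.69, 10.47 and 10.36 in the other libraries in the same order. OZ serum was the lowest of the 6 libraries for both genes. Metallothionein genes are close copies of each other, so signal may be shared between their probe sets, and the difference of Mt1 was -0.22 when its probe sets were averaged. Mt3, the form of the nervous system, was 0.06.

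The zinc transporters did not share one direction: of the whole family, looked at after the values were seen, 12 of 18 were lower with a median of -0.06, near the 58.1% of all genes. Slc39a8, which brings zinc into the cell, read 9.98 in LZ serum and 9.38 in OZ serum (-0.60), with 9.76, 9.18, 9.92 and 9.46 in the high glucose, low glucose, cholesterol and fatty acid libraries. For this gene LZ serum was the highest library and OZ serum lay between the controls. Slc39a14, another importer, was -0.24, Slc30a1, the exporter of the cell surface, was -0.21, Slc30a2, another exporter, was 0.04, and Mtf1, the zinc-sensing factor, was -0.10. In the list as a whole 6 of 8 members were lower and 2 higher, with a median of -0.22, and 3 passed 1.5-fold. The median between the controls, high minus low glucose, was 0.05 for this list, but its members went both ways, with Mt2A at -0.66, Mt1 at -0.69 and Slc39a8 at 0.58. For Mt1 and Slc39a8 this was about the size of the serum difference.

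The 250 bases before the starts of Mt2A, Mt1 and Slc30a1 are shown because MTF1 is known to act through metal response elements near the starts of such genes. Capitals mark the core of that element, searched as TGCACNC and TGCGCNC on both strands, where N is any base and matches may overlap. The genes and the motif were chosen after the values were seen. Mt2A lies at chr19:10838709-10838958 on the minus strand, Mt1 at chr19:10832976-10833225 on the minus strand and Slc30a1 at chr13:106021769-106022018 on the plus strand (RefSeq, GRCr8), each written 5′ to 3′ on the gene's strand.
Mt2A: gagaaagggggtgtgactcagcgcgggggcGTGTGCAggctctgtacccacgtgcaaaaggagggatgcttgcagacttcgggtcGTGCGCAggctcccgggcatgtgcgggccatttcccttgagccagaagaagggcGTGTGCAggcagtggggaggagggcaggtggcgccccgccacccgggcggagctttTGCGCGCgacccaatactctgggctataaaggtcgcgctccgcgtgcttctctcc
Mt1: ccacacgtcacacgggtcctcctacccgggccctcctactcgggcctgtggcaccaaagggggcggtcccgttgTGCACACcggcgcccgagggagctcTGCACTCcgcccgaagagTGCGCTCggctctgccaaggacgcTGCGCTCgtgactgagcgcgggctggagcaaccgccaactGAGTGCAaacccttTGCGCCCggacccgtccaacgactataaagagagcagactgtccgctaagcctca
Slc30a1: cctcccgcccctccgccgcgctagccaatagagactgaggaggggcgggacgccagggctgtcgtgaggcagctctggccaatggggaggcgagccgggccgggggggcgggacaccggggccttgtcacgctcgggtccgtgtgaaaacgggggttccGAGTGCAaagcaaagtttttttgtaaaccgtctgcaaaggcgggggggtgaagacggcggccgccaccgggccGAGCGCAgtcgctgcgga
The windows held 4, 6 and 2 cores respectively. A core was in 6 of the 7 list members with a promoter in the table and in 31.2% of all 9493, while 3 or more were in 2.28% of all and 5 or more in 0.147%. These letters do not show that MTF1 was bound.

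Complement and acute-phase proteins were lower in OZ serum, with 15 of 18 members below 0, 3 of them past 1.5-fold, and a median of -0.26. A2m, a broad protease trap, read 8.63 in LZ serum and 7.71 in OZ serum (1.88-fold lower), with 7.71 in the high glucose control, 8.20 in the low glucose control, 7.32 in cholesterol and 6.93 in fatty acid. Lbp, which presents bacterial lipopolysaccharide to cells, read 8.54 and 7.63 (1.87-fold lower), with 7.98, 6.92, 8.32 and 6.92 in the others in that order. C3, the central complement component, read 10.49 and 9.93, with 10.28, 9.22, 11.13 and 10.28 in the others. For A2m and Lbp, LZ serum was the highest of the 6 libraries, and OZ serum was not below both controls for any of these 3 genes.

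Further members on the lower side were Cp, the copper-carrying ferroxidase (-0.68), the lectin-pathway protease Masp1 (-0.51), the classical-pathway protease C1s (-0.43), its inhibitor Serping1 (-0.32), the protease inhibitor Serpina3n (-0.32), Lcn2 (lipocalin, -0.28) and Cfb (complement factor B, -0.24). Above 0 were Cd55, a surface protein that dismantles complement convertases, which read 11.77 in LZ serum and 12.05 in OZ serum, C1qa (0.11) and the interleukin receptor Il1r1 (0.04). As a list, LZ serum was above both controls for 8 of 18 members, against 20.3% of all genes, and OZ serum was below both for 4, against 41.6%. The median deviation from the gene means was 0.26 in LZ serum and -0.03 in OZ serum. The controls differed by 0.27 for this list, as much as the serum libraries did.

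Of 26 inflammatory and NF-kB genes 20 were lower and 6 higher, with a median of -0.20. Csf3, the granulocyte growth factor, read 7.70 in LZ serum and 7.17 in OZ serum, with 7.21, 7.09, 7.94 and 7.64 in the high glucose, low glucose, cholesterol and fatty acid libraries. Relb, an NF-kB subunit, read 8.59 and 8.11, with 8.57, 8.61, 9.02 and 9.22 in the others. Sod2, the mitochondrial superoxide dismutase, read 10.78 and 10.33, with 10.69, 10.12, 10.49 and 10.43 in the others. OZ serum was the lowest library for Relb only among these 3.

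The subunits and regulators of NF-kB differed in the same direction: Nfkb2 and Nfkb1 were -0.25 and -0.24, the inhibitor Nfkbia -0.18 and the co-regulator Nfkbiz -0.37. The receptors Tlr2 and Tlr4 were -0.33 and -0.20, the adhesion protein Icam1 -0.26 and the prostaglandin synthase Ptges -0.36. The cytokines and their receptors were mixed, with Il6 at 0.18, Lif at 0.13, Tslp at 0.10, Tnf at -0.02 and Il1rl1, the receptor of Il33, the highest at 0.39. OZ serum was the lowest of the 6 libraries for 12 of the 26 members, against 20.0% of all genes, and the median deviation was -0.29 in OZ serum, -0.08 in LZ serum, -0.10 in either control, 0.30 in cholesterol and 0.20 in fatty acid. Between the controls the list differed by 0.02.

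Chemokines did not share one direction, with 7 of 13 higher and a median of 0.02. Cxcl10, an interferon-induced attractant of T cells, read 7.88 in LZ serum and 8.66 in OZ serum (1.72-fold higher), with 8.39, 8.53, 8.33 and 10.42 in the high glucose, low glucose, cholesterol and fatty acid libraries. LZ serum was the lowest of the 6 and OZ serum lay just above the controls. The monocyte attractants Ccl7 and Ccl2 were 0.29 and 0.16, and Ccl20 and Cxcl1 were -0.42 and -0.16. The interferon-responsive list, which includes Cxcl10, had 15 of 24 members lower, near the 58.1% of all genes, with a median of -0.08 that was 0.023 under the stricter signal filter. Its lower members included Ifi44 (-0.36), the signalling factor Stat2 (-0.34), Ifitm3 (-0.32) and the peptide transporter Tap1 (-0.25).

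**Figure D4:**
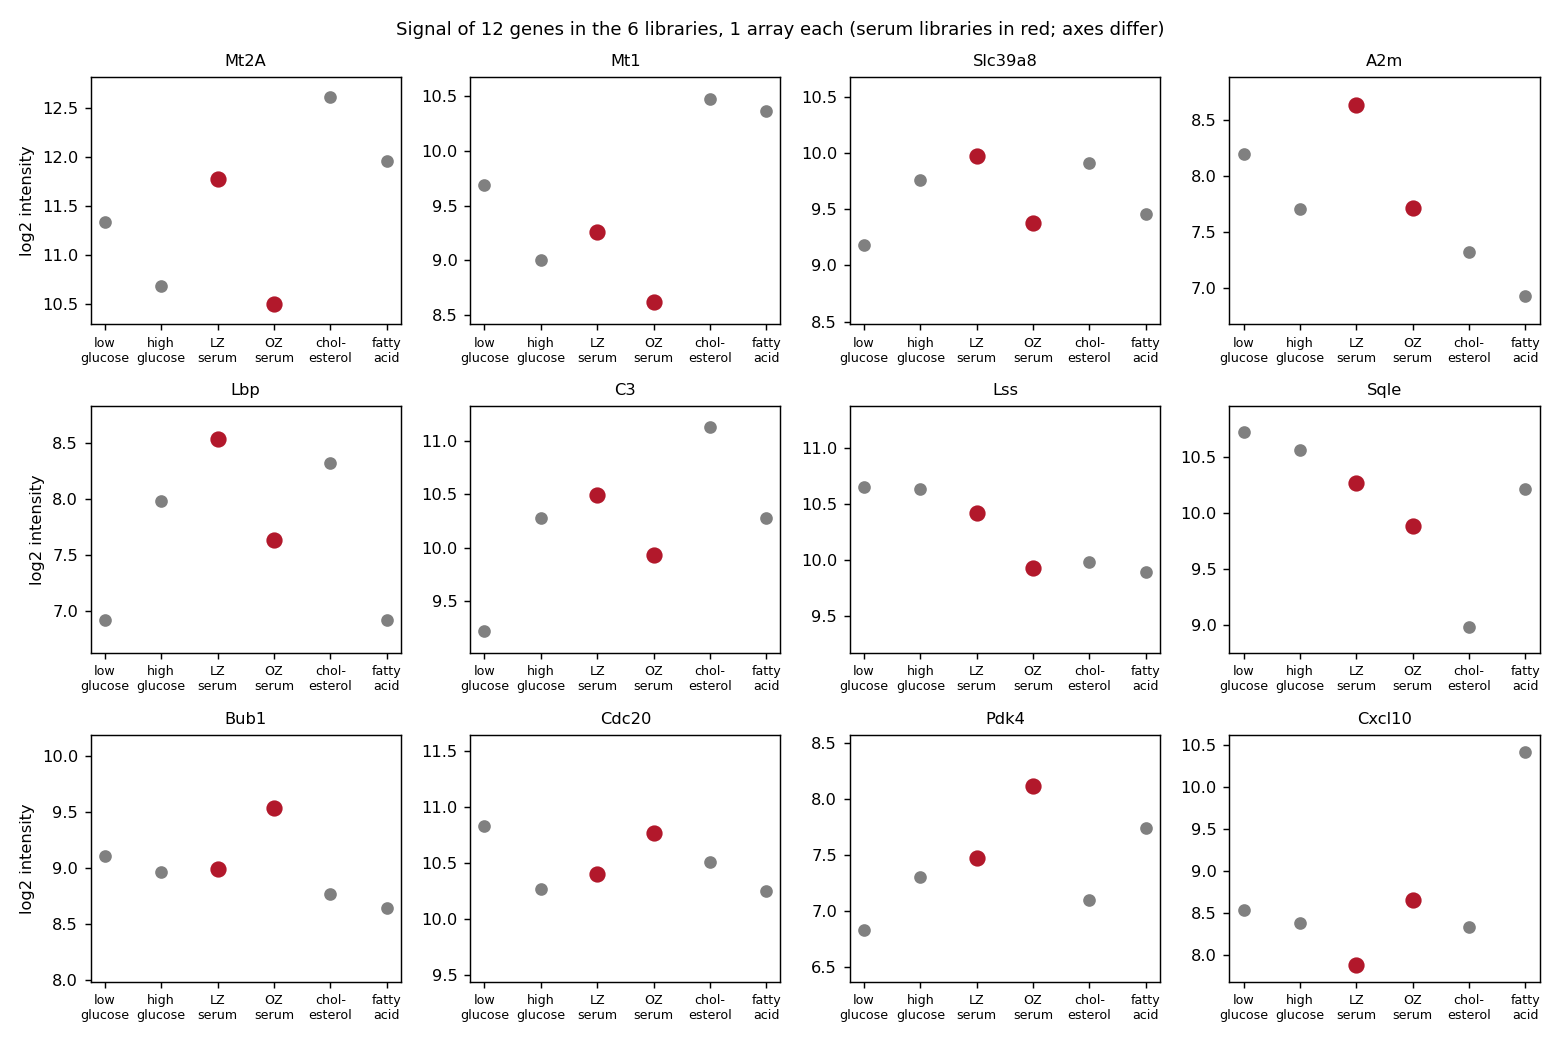
Level of 12 genes (log2 intensity, vertical axes differ) in the 6 libraries, 1 array each, with the serum libraries in red. Mt2A is lowest in OZ serum (10.49), A2m and Lbp are highest in LZ serum (8.63 and 8.54), and Bub1 and Pdk4 are highest in OZ serum (9.53 and 8.11).

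The insulin-like growth factor system, in which binding proteins and their proteases set how much ligand reaches the receptor, was lower in 16 of 18 members, with a median of -0.21 and 0.06 between the controls. Pappa, the protease that frees the ligand from its binding proteins, read 9.08 in LZ serum and 8.51 in OZ serum, with 8.48, 8.33, 9.98 and 8.72 in the high glucose, low glucose, cholesterol and fatty acid libraries. Its inhibitor Stc1 read 12.24 and 11.76, with 12.11, 11.28, 9.45 and 9.999 in the others. The binding protein Igfbp3 read 9.15 and 8.76, with 9.91, 9.70, 7.07 and 8.28 in the others. OZ serum lay close to the controls for Pappa, between them for Stc1 and below both for Igfbp3. The ligand Igf1 was -0.25, the binding proteins Igfbp6 and Igfbp2 were -0.35 and -0.28, the adaptors Irs2 and Irs1 -0.27 and -0.23, and the receptors Insr and Igf1r -0.20 and -0.14. Igf2r, a scavenging receptor, and the adaptor Grb10 were 0.01 and 0.07.

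The FOXO targets and atrogenes, which growth factor signalling through AKT holds down, had a median of -0.20, with 17 of 22 members lower. They included Pik3ip1, an inhibitor of the kinase upstream of AKT (-0.40), Fbxo32, the muscle ubiquitin ligase atrogin (-0.34), the factors Foxo4, Foxo3 and Foxo1 (-0.34, -0.30 and -0.19), and Sesn3 (-0.26). Pdk4, also a FOXO target, was the highest of the 5 members above 0, at 0.64. LZ serum was above both controls for 11 of the 22 members, against 20.3% of all genes. The list differed by 0.27 between the controls, more than between the sera.

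Glucocorticoid targets were spread widely, with 14 of 21 lower and a median of -0.13. Per1, a clock gene that the receptor induces directly, read 9.07 in LZ serum and 8.46 in OZ serum, with 8.27, 8.51, 8.28 and 8.52 in the high glucose, low glucose, cholesterol and fatty acid libraries. LZ serum thus stood above the others, which lay close together. Tsc22d3, the leucine zipper protein GILZ, read 8.93 and 8.41, with 8.81, 8.58, 7.49 and 9.09 in the others, and the kinase Sgk1 read 10.40 and 9.999, with 10.05, 10.17, 11.47 and 11.60. Klf15 and Klf9 were -0.36 and -0.29. Fkbp5, a chaperone partner widely used to read receptor activity, did not follow them at 0.01, and Pdk4 and Angptl4, which are targets of PPAR too, were 0.64 and 0.26. The receptor gene Nr3c1 was -0.13.

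In the list of the glucose-responsive Txnip arrestin family 7 of 9 members were lower, with a median of -0.22, which was -0.082 under the stricter signal filter. The list also holds Mlx, Mlxip, Klf10 and G6pc3, which are not arrestins, and its higher members were Mlx (0.07) and G6pc3 (0.04). Txnip, which is induced by glucose and limits its uptake, read 11.50 in LZ serum and 11.11 in OZ serum, with 11.83 in the high glucose control and 11.03 in the low glucose control. Arrdc4 and Arrdc3 were -0.29 and -0.28. The glucose content of the serum cultures is not in the labels. Of the clock genes 14 of 18 were lower with a median of -0.09, and the retinoid, dioxin receptor and thyroid list had 12 of 16 lower with a median of -0.15, led by Dhrs3, which reduces retinaldehyde, at -0.63, with the retinoic acid carrier Crabp1 on the other side at 0.46.

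Matrix genes were lower by small amounts. Of 23 collagen chains 20 were lower, with a median of -0.17, and the difference between the controls was larger at -0.22. The basement membrane chains Col4a2 and Col4a1 were -0.36 and -0.28, the latter at 10.21 in LZ serum and 9.92 in OZ serum. The fibril chain Col3a1 was 12.62 in LZ serum and 12.32 in OZ serum, while Col1a1, the most abundant fibril chain of many tissues, was only -0.05. Collagen processing enzymes were lower in 17 of 22 (median -0.09), matrix proteases and their inhibitors in 18 of 24 (median -0.12), with Adamts5, which cuts aggrecan, at -0.58 and Serpinb2, which blocks plasminogen activators, at 0.41. Targets of TGF-beta were lower in 20 of 24 but with a median of only -0.07. The Wnt list had 20 of 31 lower with a median of -0.10, led by the secreted inhibitors Sfrp2 and Sfrp4 at -0.46 and -0.39. Among the growth factor ligands, the vessel factor Angpt1 was -0.47 and Vegfa 0.15. Myostatin (Mstn), the muscle growth inhibitor in the BMP list, read 10.43 and 10.08.

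Antioxidant and lysosomal genes were lower in most members, each by little. The NRF2 list had 24 of 29 lower with a median of -0.11, including the haem oxygenase Hmox1 (-0.35) and Nqo1 (-0.26). Keap1, the inhibitor of NRF2 and not an antioxidant gene itself, is in this list too and was -0.41. The lysosome and autophagy list had 28 of 32 lower with a median of -0.09.

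Several lists had medians near 0, against -0.03 for all genes. Ribosomal proteins (28 of 52 higher, median 0.01), respiratory chain subunits (32 of 61, 0.00), proteasome subunits (16 of 31, 0.01), the tricarboxylic acid cycle (13 of 24, 0.01), chaperones of the endoplasmic reticulum (12 of 24, 0.00) and ATF4 targets (15 of 31, -0.00) had members on both sides. Their share higher ran from 48.4% (ATF4 targets) to 54.2% (the tricarboxylic acid cycle), above the 41.9% of all genes. Hspa5, the main chaperone of the endoplasmic reticulum, was 0.02. Immediate early genes had a median of -0.03, with Fos at -0.07 and Egr1 at -0.07. Of 30 genes of muscle contraction and differentiation 10 passed the filter, 5 of them higher and 5 lower.

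**Figure D5:**
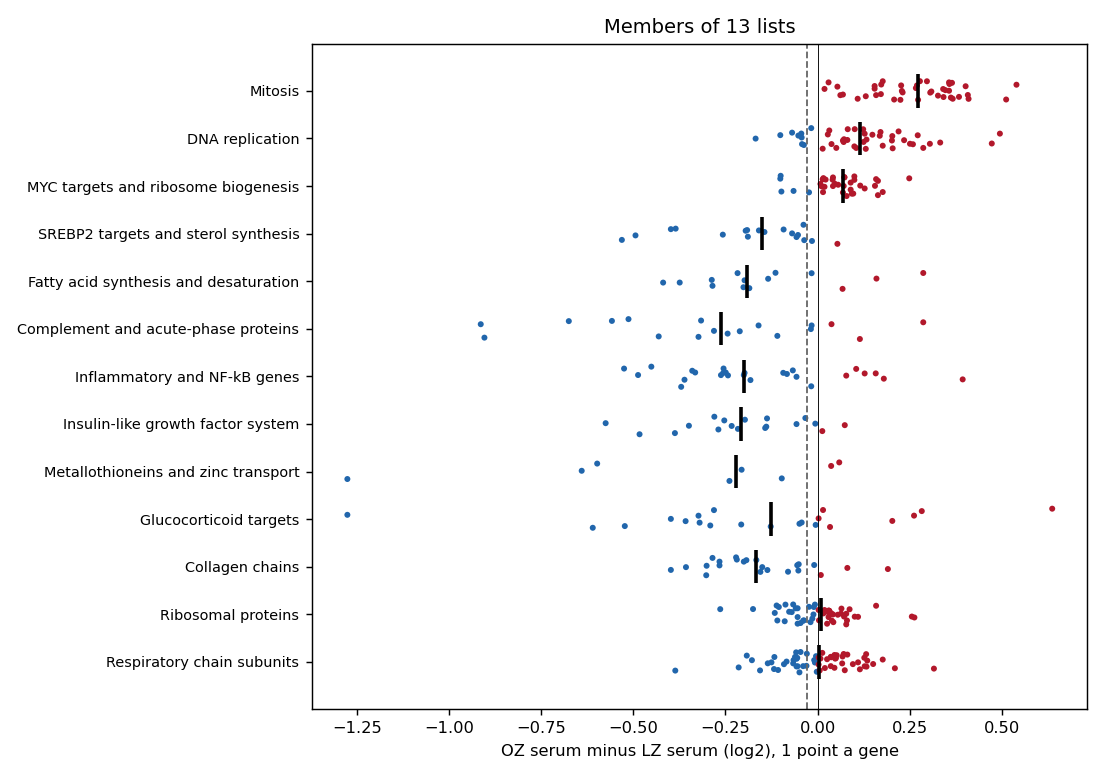
Difference between OZ serum and LZ serum (log2) of each member of 13 lists, 1 point a gene (red above 0, blue below 0), with the list median as a black bar and the all-gene median of -0.03 as a dashed line. All 41 mitotic genes lie above 0, 17 of 18 SREBP2 targets below 0, and the ribosomal proteins on both sides.

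The genes past 1.5-fold that belong to none of the groups above are given for completeness. On the lower side Wfdc18 read 8.44 in LZ serum and 7.31 in OZ serum (2.18-fold), with 7.90, 6.47, 6.54 and 7.07 in the high glucose, low glucose, cholesterol and fatty acid libraries. Cdo1, the cysteine dioxygenase that starts taurine synthesis, read 8.20 and 7.19 (2.02-fold), with 7.24, 6.19, 7.26 and 6.66 in the others. LZ serum was the highest library for both. Xdh, which oxidises xanthine to urate, read 10.09 and 9.26 (1.77-fold), with 9.60, 9.27, 10.56 and 9.16 in the others, and the purine deaminases Ampd3 and Gda were 1.61-fold and 1.54-fold lower. Also lower were the hyaluronan-degrading protein Cemip (1.66-fold), Lce1m of the cornified envelope (1.58-fold), the oxysterol hydroxylase Cyp7b1 (1.55-fold) and the serotonin receptor Htr1b (1.53-fold).

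On the higher side were Depdc1, which is expressed in dividing cells (7.68 in LZ serum and 8.40 in OZ serum, 1.65-fold), the protease inhibitor Serpinb7 (1.51-fold), Rpl32l3 (1.76-fold) and Taar7h, a trace amine receptor (1.77-fold). The last pair belong to families of near-identical copies, so their signal is uncertain. Taar7h was also dim, at 7.38 in LZ serum and 8.21 in OZ serum. It read 6.94 and 6.90 in the high and low glucose controls, 7.06 in cholesterol and 5.96 in fatty acid. Its mean outside the serum libraries lay below the filter of log2 6.74, so Taar7h was kept only through its serum levels. The 7 further symbols on this side, 6 olfactory receptors and 1 microRNA gene, are not named. Just inside the threshold lay Serpinb7 at 0.60 and Slc39a8 at -0.60, and just outside it Oxct2b at 0.57 and Asip at -0.58.

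The position of these genes against the controls differed by side, which describes the same arrays that chose them and is no independent evidence. Of the 13 higher genes, which include the 6 olfactory receptors and the microRNA gene, OZ serum was above both controls in 12. The exception was Serpinb7, at 7.60 in LZ serum and 8.20 in OZ serum. It read 8.22 in the high glucose control and 10.03 in the low glucose control. Of the 17 lower genes LZ serum was above both controls in 15, and OZ serum was below both in 5.

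The serum difference was set beside differences that share no array with it, across the 11540 genes, which are not independent of each other. Against cholesterol minus the high and low glucose controls, Pearson's r was -0.04 and -0.09, and against fatty acid minus the low and high glucose controls it was 0.14 and 0.17. Against high minus low glucose it was -0.06. The spread differed with signal, with an SD of 0.17 in the dimmest of 5 equal bins of genes by signal and 0.12 in the brightest. Of 170 genes measured above the filter by several probe sets, 122 (71.8%) had the same direction in all of them, and of 19 with a probe set past 0.3 in size, 15 did.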

How the data were processed

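Total RNA of 6 cultures was measured on Affymetrix Rat Gene 2.0 ST arrays, per the labels. The deposited values are linear probe-set intensity values for 36685 probe sets; how they were summarised and normalized is not given in the sources used here. Log2 was taken with no offset. Platform annotation paired 18511 probe sets with a single gene (the ones used), 575 with several genes and 17599 with none; 18394 identifiers were found in RefSeq (GRCr8). The brightest probe set stood for a gene, and genes with a mean level of at least log2 6.74 (intensity 107.2) over the 6 arrays were kept. Groups were taken from titles. With 1 array a group there was no test, and counts used folds of 2 and 1.5.

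The members, the 48 gene lists (1272 genes annotated, 1089 past the filter) and the 9 marker lists were chosen with earlier results of these data known. Named genes were up to 15 on each side at 1.5-fold or more, provisional and receptor-family symbols passed over, and list members, up to 6 a list as a rule. Members named beyond 6, and Slc39a8, Per1 and the genes just outside the threshold, were chosen after their values were seen. Promoters were the 250 bases before the start. The counting was tested on simulated data. Alternatives were quantile normalization, median centring, cyclic loess, omitting the signal filter, tightening it to a stricter one (the 75th percentile, log2 8.68), a filter on the 4 other arrays, averaged probe sets, an offset of 32 and, in place of 2-fold, a 1.5-fold threshold. Tools were Python 3.11.15, numpy 2.4.6, pandas 2.3.3, scipy 1.17.1, matplotlib 3.10.9, R 4.3.3 and limma 3.58.1.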

Additional observations from a re-analysis of the deposited data

How the results depend on the processing

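Over 48 lists and 8 settings, 379 of 384 list medians moved by at most 0.1, and 5 moved by more. The sign changed in 13 of the 384, all with a main median under 0.1 in size and 10 of them under median centring, and in 0 of those with a larger one. The 5 were all under the stricter signal filter, which leaves fewer genes: chemokines 0.16, complement and acute-phase proteins -0.16, the Txnip arrestin family -0.082, interferon-responsive genes 0.023 and metallothioneins and zinc transport -0.60. The mitosis list ran from 0.24 to 0.34. Counts at 1.5-fold became 108 higher and 65 lower with no filter, and 3 and 8 with the stricter one. At 2-fold they became 9 and 6 with no filter, and 1 lower with the stricter filter or with an offset of 32, and a 1.5-fold threshold gave 13 and 17. Median centring moved the all-gene median to -0.06 and the share of genes higher to 31.8%. The correlation with cholesterol or fatty acid minus a control kept its sign with either control. No paired analysis was possible because each group has 1 array and the libraries carry no shared replicate numbers. Signal over background limits the dim genes, whose spread was widest, and no replicate sets the size of a chance shift. The serum libraries also differ in whatever else separates 2 cultures, which cannot be told apart from the sera.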

Other observations

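Gene families outside the lists were looked at after the data were seen and are given as values. Histone genes were higher in OZ serum for 15 of 20 members past the filter, with a median of 0.20. The canonical genes H2bc8, H4c14 and H2ac4 were 0.44, 0.40 and 0.39 higher, and H2az1, a histone variant, was 0.33. H2bc8 read 9.36 in LZ serum and 9.80 in OZ serum, with 9.28 in the high glucose control and 9.83 in the low glucose control. OZ serum and the low glucose control were thus close for H2bc8, and for H4c14 at 9.88 and 9.96. They were further apart for H2ac4, at 8.01 and 8.28, and for H2az1, at 11.11 and 10.84. The replacement histones H3f3b and H3f3l1 were 0.08 and 0.09. Among motor proteins, 17 of 28 kinesins were higher with a median of 0.07. Nucleoporins were higher in 14 of 19 (median 0.04) and serine- and arginine-rich splicing factors in 8 of 11 (median 0.10). Major histocompatibility genes, which present peptides to T cells, were lower in 11 of 15, with a median of -0.10.

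Olfactory receptors, which are not known as genes of muscle progenitors and which lie in families of similar copies, were higher in 55 of 77 past the filter, with 6 at 1.5-fold or more and a median of 0.10. Of all genes, 41.9% were higher and 0.113% were higher by that fold. Annotated microRNA genes, which the array reads only as host or precursor transcripts, were higher in 44 of 78 with a median of 0.03. Probe sets with no gene in the annotation gave wider differences than named genes: of 6207 above the filter, 153 were at least 1.5-fold higher and 81 lower in OZ serum (3.77% in all, against 0.26% of named genes), with a median of 0.01.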
